A study of Mus musculus with 9 samples.

Results

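The Hox genes of the mouse were followed as a family across colon and small intestine. All protein-coding genes of the count table named Hoxa, Hoxb, Hoxc or Hoxd with a number from 1 to 13 were taken, which gave 39 genes among the 78239 in the table: 11 in the Hoxa cluster, 10 in Hoxb, 9 in Hoxc and 9 in Hoxd. RNA with poly(A) tails was sequenced from gut epithelium that had been sorted on GFP, taken from mice of 8 weeks with the Lgr5-2A-eGFP reporter, with crypts freed by chelation and broken into single cells beforehand. All libraries came from animals with this reporter, in which, by its name, eGFP follows the stem cell receptor Lgr5. The 9 libraries formed 3 groups of 3: colon cells with high GFP, colon cells negative for GFP, and small intestinal cells whose GFP fraction is not in the labels. At least 30000 colon cells or 50000 small intestinal cells were collected per fraction. The labels give neither sex, strain, segment nor number of animals, and nothing in them says that replicates are separate mice, so the spread behind each p-value is that of these libraries and may be technical. Name tags recur across groups: the 6 colon libraries carry 4 different tags.

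Hox genes encode homeodomain transcription factors that give cells their position along the body axis. They lie in 4 clusters, and genes of like order in each cluster share a paralogue number: low numbers are used toward the head and high numbers toward the tail. In the gut, paralogues of the highest numbers belong to the hindgut, from which the distal colon and rectum arise, and adult epithelium keeps part of this pattern.

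The libraries held between 86621513 and 106673547 counts. Levels are given as CPM, counts scaled to a common library size, with each count divided by the deposited library size times the deposited scaling factor, and a count of 0 allows up to 3 counts, or between 0.0232 and 0.0411 CPM. Replicates 1, 2 and 3 of GFP-high colon cells had 43.5, 0.958 and 73.0 CPM of Lgr5, and those of GFP-negative cells had 2.84, 62.1 and 6.28 CPM, so Lgr5 went against the labels of the colon replicate 2 pair. The 8 epithelial markers summed to between 12170 and 30763 CPM per library. The 8 leukocyte markers summed to between 24.7 and 5954 CPM in colon and between 1084 and 2611 CPM in small intestine, and their part in the results was not tested. Muscle and connective tissue of the gut also use Hox genes. The 5 smooth muscle markers summed to between 0.152 and 2.48 CPM in colon and to at most 0.310 CPM in small intestine, with Myh11 at or below 0.0186 CPM everywhere. The 8 stromal markers summed to between 2.41 and 8.17 CPM in small intestine and between 3.90 and 57.3 CPM in colon, where the highest sum was that of GFP-negative replicate 3, with 55.7 CPM from Vim. The part of muscle and stromal markers in the results was not tested. In bulk libraries, fewer cells that carry a transcript and less of it per cell cannot be told apart.

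The colon libraries carried Hox transcripts of 3 of the 4 clusters, and the small intestinal libraries carried little of any. Summed over the 39 genes, Hox RNA was between 491 and 803 CPM in the 6 colon libraries and at 4.72, 16.7 and 9.23 CPM in small intestinal replicates 1, 2 and 3. Between 14 and 19 members reached 1 CPM in a colon library, against 2, 3 and 4 members in the small intestinal replicates 1, 2 and 3. Every colon library thus held more Hox RNA than every small intestinal one.

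**Figure D1:**
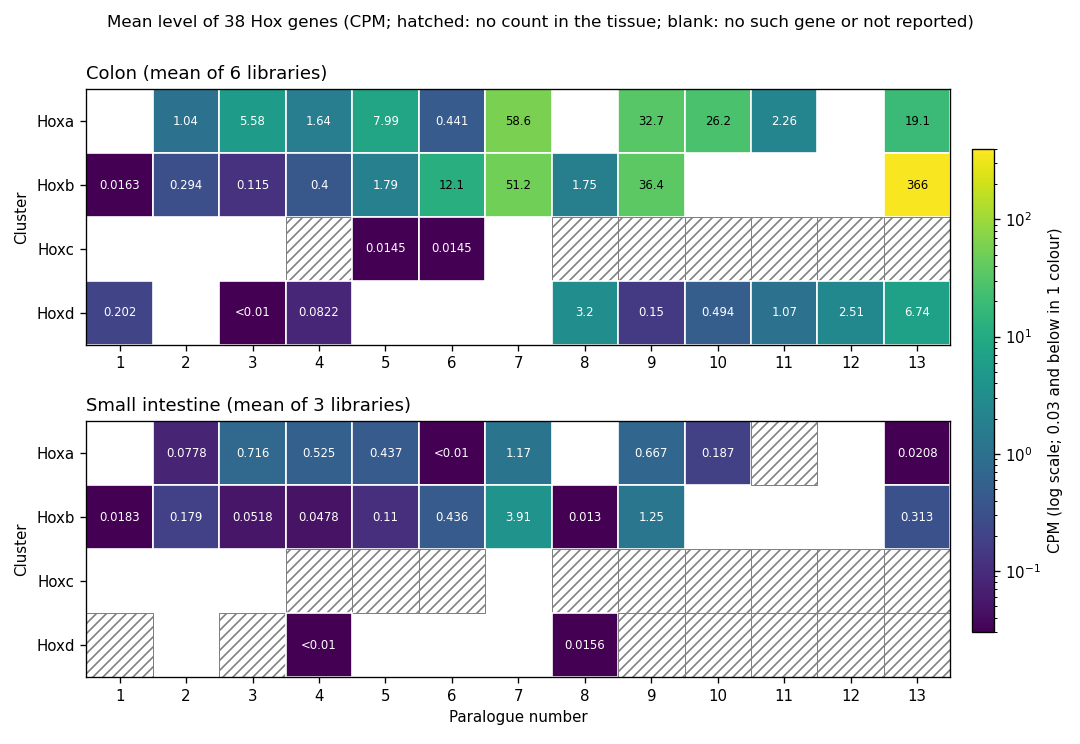
Mean level in CPM of 38 Hox genes by cluster (rows) and paralogue number (columns), for the 6 colon libraries (top) and the 3 small intestinal libraries (bottom), with colour on a log scale. Hoxb13 at 366 CPM leads in colon, Hoxb7 at 3.91 CPM leads in small intestine, and 7 Hoxc genes are hatched in both tissues because they had no count.

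Low counts kept 13 members out of the test: all 9 Hoxc genes, Hoxb1, Hoxd3, Hoxd4 and Hoxd9. Among the other 26 members, 18 were higher in colon than in small intestine and 0 were lower by edgeR's quasi-likelihood test (Benjamini-Hochberg adjusted p under 0.05 over all 20610 genes tested). Across all genes tested, 5.0% were called higher and 3.79% lower. The 18 were 8 of 11 Hoxa, 5 of 9 Hoxb and 5 of 6 Hoxd genes. By paralogue number, 1 of 8 members tested was called among numbers 1 to 4, 7 of 8 among 5 to 8, and 10 of 10 among 9 to 13. Of the members called, 9 had at most 6 small intestinal counts: Hoxa11, Hoxd10, Hoxd11, Hoxd12 and Hoxd13 had none, and Hoxa6, Hoxa13, Hoxb8 and Hoxd8 had between 2 and 6. These passed the filter on low counts through colon alone and could only be called higher, so the counts by paralogue number are a description. The median log2 fold change of the 26 was 5.62, or 4.81 with the 6 members that had no small intestinal count at their lower bound, beside 0.00 over all genes tested. For 21 members every colon library lay above every small intestinal library, as was so for 9.49% of all genes tested. The members that passed the filter through colon alone are in this median and among the 21, so both are a description too. Taken alone, GFP-high cells had 18 members above small intestine (background 3.94%) and GFP-negative cells had 17, all but Hoxb8 of those 18 (background 3.95%); these 2 comparisons share the small intestinal libraries. With the recurring name tag as a block, which leaves 2 residual degrees of freedom, 0 of the 26 members passed in any comparison with small intestine, and for all colon libraries 19 had an unadjusted p under 0.05.

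The call held without each of the 9 libraries in turn for 12 of the 18 members: Hoxa5, Hoxa7, Hoxa9, Hoxa10, Hoxa11, Hoxa13, Hoxb13, Hoxd8, Hoxd10, Hoxd11, Hoxd12 and Hoxd13. Hoxa3 lost it without small intestinal replicate 1 or 2, Hoxb7 without small intestinal replicate 1 or 3, and Hoxb5 without small intestinal replicate 3 (edgeR adjusted p between 0.0504 and 0.110). Hoxa6 lost it without small intestinal replicate 1 or 3 or colon GFP-negative replicate 1 (0.0539 to 0.0712, edgeR). Hoxb8 lost it without small intestinal replicate 1 or 3 or colon GFP-high replicate 1 or 3 (0.0508 to 0.107, edgeR). Hoxb9 lost it without small intestinal replicate 1, GFP-high replicate 3 or GFP-negative replicate 1 (0.0501 to 0.0990, edgeR). Without the colon replicate 2 pair 13 members were called, beside 659 of 21770 genes called higher. The ratios of mean CPM of single members were also computed without each library, a choice made after seeing the data, and are given where they moved by over 1.5 times.

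**Figure D2:**
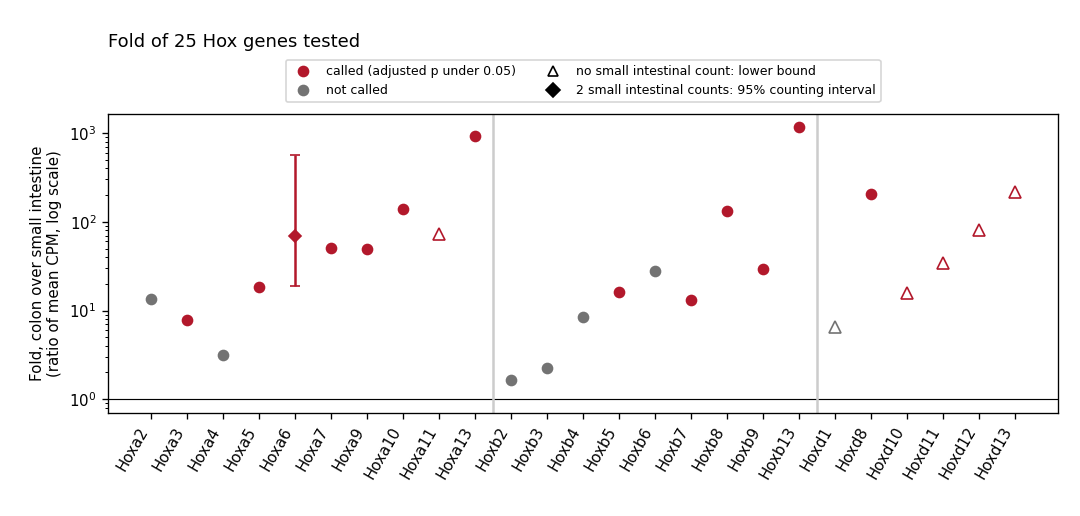
Ratio of mean CPM in colon to that in small intestine (log axis) for 25 Hox genes tested, in cluster order; red marks an adjusted p under 0.05, open triangles are lower bounds for members with no small intestinal count, and the diamond with its 95% counting interval is Hoxa6, which had 2 small intestinal counts. All points lie above 1, from 1.64 for Hoxb2 to 1168 for Hoxb13.

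The paralogues numbered 13, which act at the tail end of each cluster, included the most abundant Hox gene of the colon, and none of the 4 exceeded 0.332 CPM in small intestine. Hoxb13 (ENSMUSG00000049604.4, GRCm38 chr11:96194316-96197447, plus strand), a gene of the hindgut and prostate, had 396, 317 and 188 CPM in replicates 1, 2 and 3 of GFP-high colon cells, 547, 201 and 548 CPM in those of GFP-negative cells, and 0.329, 0.332 and 0.279 CPM in small intestine. The tissues did not overlap, and the lowest colon value was that of GFP-high replicate 3. The colon mean of 366 ± 160 CPM (SD, n = 6) was 1168-fold the small intestinal mean of 0.313 ± 0.0298 CPM (SD, n = 3), with a log2 fold change of 10.17 ± 0.61 (SE) and an edgeR adjusted p of 5.52e-05. Per kilobase of gene model, Hoxb13 had 166 RPKM in colon and exceeded every other member in each of the 6 colon libraries. Its share of all Hox RPKM ran from 39.4% in GFP-high replicate 3 to 74.6% in GFP-negative replicate 3.

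Hoxa13 (ENSMUSG00000038203.23, chr6:52257694-52260880, minus strand), needed for the development of the hindgut and the digits, had 11.9, 21.5 and 13.5 CPM in colon GFP-high cells and 25.9, 14.3 and 27.3 CPM in GFP-negative cells. In small intestine it had 0.0274, 0.0195 and 0.0155 CPM, from 6 counts in all. No colon library came near the small intestinal range, and the colon mean of 19.1 ± 6.72 CPM (SD, n = 6) was 916-fold higher (log2 fold change 9.78 ± 0.52, SE; edgeR adjusted p = 3.58e-05). Hoxd13 (ENSMUSG00000001819.5, chr2:74668310-74671599, plus strand), known for limb and genital patterning, had 4.53, 3.63 and 9.66 CPM in GFP-high cells, 5.18, 4.84 and 12.6 CPM in GFP-negative cells, and no count in small intestine. Replicate 3 was the highest library of either colon fraction, and the colon mean of 6.74 ± 3.56 CPM (SD, n = 6) was at least 216-fold higher than a floor of 3 counts per small intestinal library (edgeR adjusted p = 0.00127). Hoxc13, the member of the group known from hair and nail, had no count in any library.

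Promoter windows were read for 22 members, 24 windows in all, from the RefSeq table of build GRCm38.p6, each taken as the 250 bases before a transcript start. They were searched on either strand for 3 short motifs: CAATAAA and TCGTAAA, the forms that paralogue 13 proteins are known to bind, and CATAAA, the core of caudal-type (Cdx) sites; none of the 3 contains another. CAATAAA occurs in 4.20% of the 32851 windows of all genes, TCGTAAA in 0.478% and CATAAA in 10.8%. The windows of Hoxa13 and Hoxd13 are shown because these genes were nearly or wholly without counts in small intestine; they span chr6:52260881-52261130 (Hoxa13, minus strand) and chr2:74667975-74668224 (Hoxd13, plus strand), 5′ to 3′, and have no capitals because no motif was found in them:
Hoxa13: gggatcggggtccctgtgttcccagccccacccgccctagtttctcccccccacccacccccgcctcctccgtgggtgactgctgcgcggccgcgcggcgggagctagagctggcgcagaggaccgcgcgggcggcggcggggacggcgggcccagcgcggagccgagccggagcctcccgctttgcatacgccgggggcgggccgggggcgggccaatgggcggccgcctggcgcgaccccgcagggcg
Hoxd13: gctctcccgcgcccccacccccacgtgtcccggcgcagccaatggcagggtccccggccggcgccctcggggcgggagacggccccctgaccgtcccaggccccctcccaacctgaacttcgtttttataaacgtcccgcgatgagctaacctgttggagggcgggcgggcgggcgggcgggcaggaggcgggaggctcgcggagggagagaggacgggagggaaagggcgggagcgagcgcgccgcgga
They hold 35 and 31 CG dinucleotides, against a median of 12.5 over the 24 Hox windows and of 6 over all genes.

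**Figure D3:**
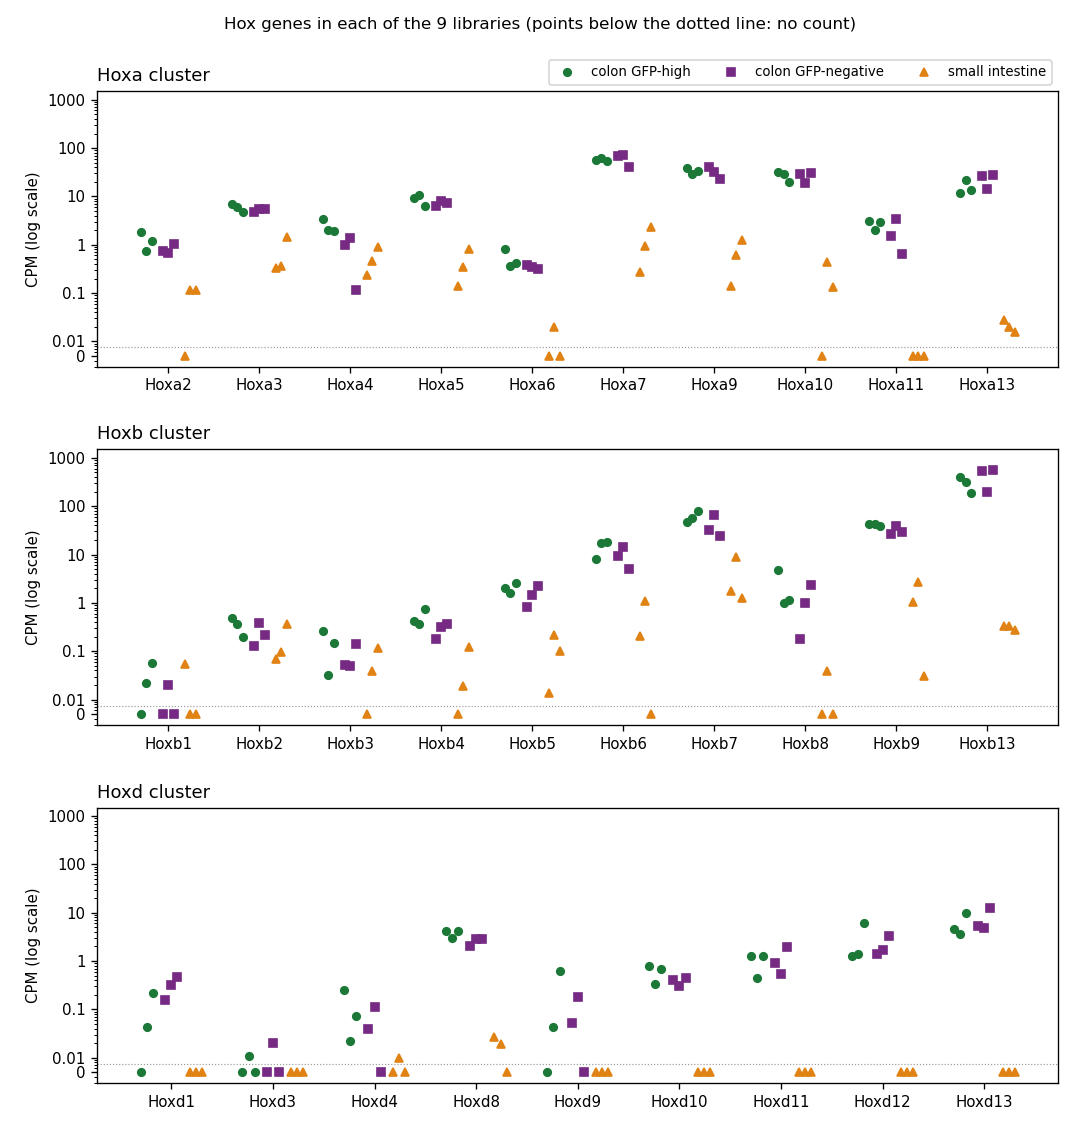
CPM (log axis) of the Hoxa, Hoxb and Hoxd genes shown, in each of the 9 libraries: green circles are colon GFP-high, purple squares colon GFP-negative and orange triangles small intestine, and points under the dotted line had no count. The colon points of paralogues 9 to 13 lie above the small intestinal points in each cluster, with Hoxd9, too low to be tested, as the exception.

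Among paralogues 9 to 12, Hoxb9, Hoxa10 and Hoxa9 were the most abundant in colon per kilobase. Hoxb9 (ENSMUSG00000020875.10, chr11:96271457-96276595, plus strand), a gene of thoracic identity, had 42.3, 41.8 and 39.6 CPM in GFP-high cells, 26.3, 39.4 and 28.9 CPM in GFP-negative cells, and 1.04, 2.68 and 0.0310 CPM in small intestine. It was 29.1-fold higher in colon (log2 fold change 4.85 ± 1.07, SE; edgeR adjusted p = 0.0248), and relative to their mean the small intestinal replicates differed more among themselves than the colon libraries did. Without small intestinal replicate 2 the ratio was 67.8. Hoxa9 (ENSMUSG00000038227.16, chr6:52223100-52231089, minus strand), better known from blood progenitors, had 39.2, 29.0 and 33.2 CPM in GFP-high cells, 40.2, 31.8 and 22.8 CPM in GFP-negative cells, and 0.137, 0.625 and 1.24 CPM in small intestine. That made a 49.0-fold difference (log2 fold change 5.60 ± 0.70; edgeR adjusted p = 0.00212), without overlap of the tissues, and the ratio was 85.8 without small intestinal replicate 3.

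Hoxa10 (ENSMUSG00000000938.12, chr6:52231197-52240854, minus strand), which patterns lumbar vertebrae and the uterus, had 31.6, 28.6 and 19.4 CPM in GFP-high cells, 28.6, 18.5 and 30.5 CPM in GFP-negative cells, and 0, 0.430 and 0.132 CPM in small intestine. It rose 140-fold (log2 fold change 7.10 ± 1.06; edgeR adjusted p = 0.00479), a ratio that was 398 without small intestinal replicate 2. Hoxa11, a kidney and limb gene, averaged 2.26 ± 1.06 CPM (SD, n = 6) in colon with no count in small intestine, at least 72.5-fold higher (edgeR adjusted p = 0.00278). The Hoxd members of this range are limb genes for the most part, and each lacked any small intestinal count. Hoxd12 (ENSMUSG00000001823.6, chr2:74675013-74677705, plus strand) had 1.30, 1.39 and 6.03 CPM in GFP-high cells and 1.40, 1.65 and 3.27 CPM in GFP-negative cells, at least 80.3-fold above small intestine (edgeR adjusted p = 0.00413). As with Hoxd13, replicate 3 was the highest of either fraction.

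Hoxd10 and Hoxd11 were lower, with colon means of 0.494 ± 0.196 and 1.07 ± 0.564 CPM (SD, n = 6), at least 15.8-fold and 34.2-fold higher (edgeR adjusted p = 0.00481 and 0.00491). Hoxd9 lay between 0 and 0.624 CPM in colon and was too low to be tested. Per kilobase the colon means along this end of the D cluster were 0.0701 RPKM for Hoxd9, 0.272 for Hoxd10, 0.253 for Hoxd11, 0.990 for Hoxd12 and 2.71 RPKM for Hoxd13, and Hoxd13 was the highest.

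The paralogues numbered 5 to 8, trunk genes in the embryo, included 2 of the 3 most abundant members per kilobase. Hoxa7 (ENSMUSG00000038236.9, chr6:52214491-52221854, minus strand) had 57.1, 61.8 and 52.8 CPM in GFP-high cells, 68.0, 72.0 and 40.1 CPM in GFP-negative cells, and 0.274, 0.928 and 2.30 CPM in small intestine. It was 50.2-fold higher in colon (log2 fold change 5.64 ± 0.70; edgeR adjusted p = 0.00207), and 97.6-fold without small intestinal replicate 3. Hoxb7 (ENSMUSG00000038721.9, chr11:96286623-96290162, plus strand) had 47.4, 57.0 and 80.4 CPM in GFP-high cells, 31.6, 66.7 and 23.8 CPM in GFP-negative cells, and 1.73, 8.76 and 1.24 CPM in small intestine. The tissues did not overlap for either gene, and Hoxb7 was the highest Hox gene of the small intestinal libraries on average. Its 13.1-fold difference (log2 fold change 3.68 ± 0.75; edgeR adjusted p = 0.0176) was the lowest of the 18 members called apart from Hoxa3, and the ratio was 34.5 without small intestinal replicate 2.

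Hoxa5, a gene of lung and gut development, averaged 7.99 ± 1.75 CPM (SD, n = 6) in colon and had 0.137, 0.352 and 0.821 CPM in small intestinal replicates 1, 2 and 3. It rose 18.3-fold (edgeR adjusted p = 0.00454), and the ratio was 32.7 without small intestinal replicate 3. Hoxb5, which acts in the neural crest that builds the gut's nerves, averaged 1.79 ± 0.621 CPM in colon and had 0.0137, 0.215 and 0.101 CPM in small intestine. It rose 16.3-fold (edgeR adjusted p = 0.0220), and the ratio was 31.3 without small intestinal replicate 2. Hoxa6 had 2 counts in small intestine, a ratio of 68.3 with a 95% counting interval from 18.7 to 567 (edgeR adjusted p = 0.0183). Hoxb6 had 8.17, 17.4 and 18.2 CPM in GFP-high cells, 9.27, 14.6 and 5.13 CPM in GFP-negative cells, and 0.206, 1.10 and 0 CPM in small intestine. The tissues did not overlap, but its log2 fold change of 4.76 ± 1.34 did not pass the threshold (edgeR adjusted p = 0.0618).

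Hoxd8 (ENSMUSG00000027102.5, chr2:74704615-74707933, plus strand), the only Hoxd gene of this range, had 4.25, 2.96 and 4.21 CPM in GFP-high cells, 2.01, 2.84 and 2.92 CPM in GFP-negative cells, and 0.0274, 0.0195 and 0 CPM in small intestine. It was 204-fold higher in colon, against 4 small intestinal counts (edgeR adjusted p = 0.00185), and 327-fold without small intestinal replicate 1. The next Hoxd genes on either side, Hoxd4 and Hoxd9, were below 1 CPM in every library. Hoxb8, a gene of the thoracic spinal cord and of microglia, varied most in colon, relative to its mean, among the members called, with 4.80, 1.01 and 1.16 CPM in GFP-high cells, 0.181, 0.977 and 2.34 CPM in GFP-negative cells, and 4 counts in small intestine, all in replicate 2. It was 134-fold higher (log2 fold change 6.84 ± 1.58; edgeR adjusted p = 0.03), and 87.1-fold without GFP-high replicate 1. Without small intestinal replicate 2 no small intestinal count was left.

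The window before Hoxb8 (chr11:96281655-96281904, plus strand) is shown because it alone of the 24 held either paralogue 13 motif; capitals mark 1 TCGTAAA, 1 CAATAAA read on the other strand, and 2 CATAAA, 1 on each strand. The window before Hoxd4 (chr2:74721728-74721977, plus strand), a gene of the head end that had a single count in small intestine and at most 0.248 CPM in colon, is shown for contrast; its capitals mark 1 CATAAA on the other strand:
Hoxb8: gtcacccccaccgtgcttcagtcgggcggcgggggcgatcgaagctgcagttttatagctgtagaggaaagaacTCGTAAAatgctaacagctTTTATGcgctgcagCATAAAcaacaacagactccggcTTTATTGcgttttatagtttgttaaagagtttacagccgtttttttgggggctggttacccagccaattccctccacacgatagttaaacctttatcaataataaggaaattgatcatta
Hoxd4: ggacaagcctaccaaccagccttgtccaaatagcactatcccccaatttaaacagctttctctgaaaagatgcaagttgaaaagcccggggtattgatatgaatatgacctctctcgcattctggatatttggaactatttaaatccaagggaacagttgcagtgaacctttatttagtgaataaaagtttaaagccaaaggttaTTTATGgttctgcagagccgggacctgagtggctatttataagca
They hold 12 and 3 CG dinucleotides. CATAAA was also found before Hoxa7, Hoxd3 and Hoxd11. These matches describe letters in the windows and nothing about binding.

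The paralogues numbered 1 to 4, which pattern the hindbrain and neck, were low in either tissue, and Hoxa3 was the only one of the 8 tested that was called. Hoxa3 (ENSMUSG00000079560.14, chr6:52169062-52213336, minus strand), a gene of thymus and pharynx, had 6.82, 5.94 and 4.80 CPM in GFP-high cells, 4.86, 5.48 and 5.55 CPM in GFP-negative cells, and 0.329, 0.361 and 1.46 CPM in small intestine. It was 7.79-fold higher in colon (log2 fold change 2.95 ± 0.58; edgeR adjusted p = 0.0156), and 16.2-fold without small intestinal replicate 3. Relative to their mean the 6 colon values lay closer together than those of the other 17 members called. Among those that did not pass were Hoxa2, Hoxa4, Hoxb2, Hoxb3, Hoxb4 and Hoxd1, with log2 fold changes from 0.68 ± 0.78 for Hoxb2 (edgeR adjusted p = 0.635) to 3.66 ± 1.03 for Hoxa2 (0.0617) among those with small intestinal counts. Hoxa2 and Hoxb4 nevertheless had all colon libraries above all small intestinal ones. Hoxd1 was at most at 0.472 CPM in colon and had no small intestinal count (edgeR adjusted p = 0.0861). Hoxb1 and Hoxd3 stayed at or below 0.0558 CPM in every library.

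The Hoxc cluster was close to undetected at this depth. Hoxc4, Hoxc8, Hoxc9, Hoxc10, Hoxc11, Hoxc12 and Hoxc13 had no count in any of the 9 libraries. Hoxc5 and Hoxc6 had 8 counts each, all in colon GFP-high replicate 2, or 0.0871 CPM. The cluster's noncoding gene Hotair also had no count.

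Levels between genes were compared as RPKM, using the gene lengths of the table. In colon Hoxb13 (166 RPKM) was followed by Hoxb7 (33.1), Hoxa7 (20.4), Hoxb9 (14.1), Hoxa10 (8.01), Hoxa13 (7.95), Hoxb6 (6.18), Hoxa9 (5.86), Hoxa5 (4.26) and Hoxd13 (2.71 RPKM). Hoxb13 lay above Hoxb7, Hoxa7 above Hoxb9, Hoxb9 above Hoxa10, and Hoxd13 above Hoxd8 in each of the 6 colon libraries. The other neighbours in the order changed places between libraries: Hoxb7 with Hoxa7, and the run from Hoxa10 to Hoxd13. Hoxb genes made up between 74.2% and 83.9% of Hox RPKM in a colon library, Hoxa genes between 13.5% and 23.8%, and Hoxd genes between 1.14% and 4.12%.

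The point along each cluster where the tissues part was described by presence, taken as at least 1 CPM in every library of a tissue, with no test. In the Hoxa cluster no member was present in small intestine, and Hoxa3, Hoxa5, Hoxa7, Hoxa9, Hoxa10 and Hoxa13 were present in colon, so the boundary lay at paralogue 3. That boundary rests on Hoxa3, whose counts are uncertain because its exons overlap those of Gm28308 and Hoxaas3. In the Hoxb cluster Hoxb7 was present in small intestine, and Hoxb6, Hoxb7, Hoxb9 and Hoxb13 in colon, which put the boundary at paralogue 9. In the Hoxd cluster it lay at paralogue 8, with Hoxd8, Hoxd12 and Hoxd13 present in colon alone. The Hoxc cluster had no boundary. Hoxb9 missed presence in small intestine through replicate 3 alone, at 0.0310 CPM, and without that library the Hoxb boundary moved to paralogue 13. By tissue means in place of every library, Hoxa7 and Hoxb9 counted as present in small intestine and the boundaries moved to paralogues 9 and 13.

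The 3 small intestinal libraries did not carry the same Hox genes. Hoxa RNA summed to 1.25, 3.37 and 6.96 CPM in replicates 1, 2 and 3, whereas Hoxb RNA summed to 3.44, 13.3 and 2.26 CPM. Hoxb genes were 79.7%, 86.0% and 32.9% of Hox RPKM and Hoxa genes 19.8%, 13.9% and 67.1%. Replicate 2 was thus highest for Hoxb and replicate 3 for Hoxa. Beside these values, Fabp6, the bile acid binding protein of the ileum, was at 438, 9.75 and 0.837 CPM in the same order, the labels give no segment, and the part of segment was not tested. In the 6 colon libraries Hoxa RNA summed to between 136 and 178 CPM and Hoxb RNA to between 325 and 615 CPM.

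Between the colon fractions as labelled, no member passed the test. With edgeR 0 of the 26 members tested were called (0% of all genes tested). At an unadjusted p under 0.05 edgeR had 226 of the 20610 genes and 0 members, which for 26 members is near that share. DESeq2 called 1 gene, not a member, and at an unadjusted p under 0.05 had 0 members beside 406 of the 20610 genes. With limma 0 genes were called, and at an unadjusted p under 0.05 it had 2 members beside 226 of the 20610 genes. The limma share of members was above that of all genes, a difference that was not tested. The log2 fold changes ran from -1.82 ± 1.49 (SE) for Hoxd1 to 1.57 ± 0.86 for Hoxa4, so differences of moderate size were not detectable with this spread. Every GFP-high library lay above every GFP-negative library for 3 members, Hoxa4, Hoxb9 and Hoxd8, and the reverse held for 0; across all genes tested the shares were 2.81% and 1.59%. Hoxa4, of the neck and forelimb level, had 3.37, 2.01 and 1.96 CPM in GFP-high cells and 0.972, 1.40 and 0.118 CPM in GFP-negative cells (edgeR adjusted p = 1.00). Without the colon replicate 2 pair, whose labels Lgr5 went against, edgeR still called 0 members. At an unadjusted p under 0.05 it had 1 member, beside 1582 of 21770 genes. DESeq2 called 700 of these 21770 genes and 0 members, which for so few members is near that share.

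**Figure D4:**
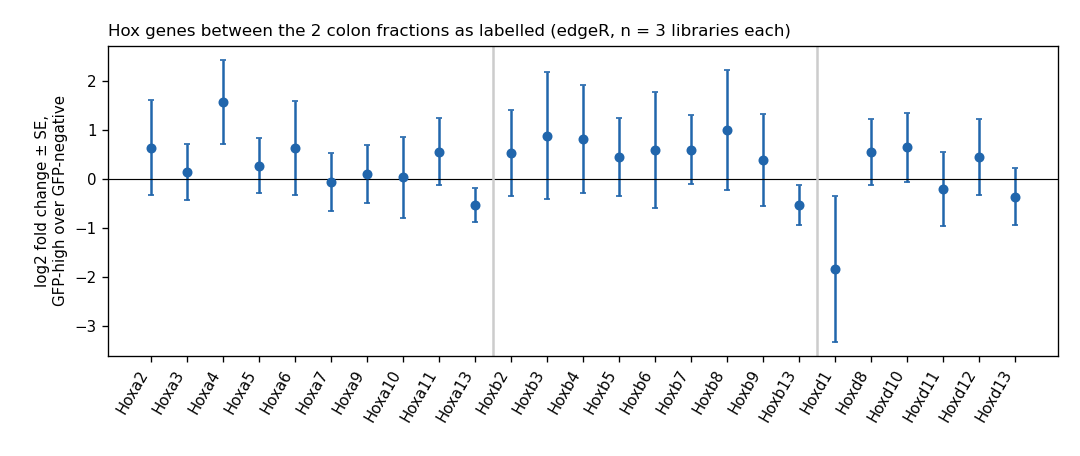
Log2 fold change with its standard error from edgeR for 25 Hox genes tested, colon GFP-high over colon GFP-negative as labelled (n = 3 libraries each), in cluster order with grey lines between clusters. The estimates lie on either side of 0, from -1.82 for Hoxd1 to 1.57 for Hoxa4, and none was called.

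Several noncoding genes of the clusters were also higher in colon. Of 15 noncoding genes of the clusters in the table, 8 were tested. Higher in colon were 4, Hoxa11os, Hottip, Hoxd3os1 and Hoxaas3 (median log2 fold change of the 8, 4.63), beside 5.0% of all genes tested. Hoxa11os, Hottip and Hoxd3os1 had 4, 13 and 2 small intestinal counts. They passed the filter on low counts through colon alone and could only be called higher, so this count is a description. Hoxa11os, antisense to Hoxa11, averaged 14.6 ± 2.86 CPM (SD, n = 6) in colon and had 4 counts in small intestine (edgeR adjusted p = 8.47e-05). Hottip, transcribed away from Hoxa13 at the end of the cluster, averaged 6.85 ± 4.19 CPM against 0.0396 ± 0.0446 CPM (edgeR adjusted p = 0.00479). The gene models of Hoxa11 and Hoxa11os overlap on opposite strands, as do those of Hoxa3 and Hoxa7 with Hoxaas3, and of Hoxb5 with Hoxb5os. Hoxd3os1 likewise overlaps Hoxd3 and Hoxd4, which were too low to be tested. Since the strand setting of the counting is not given in the sources used here, reads of such partners cannot be told apart. On one strand Hoxd10 and Hoxd11 share exons with the gene model Gm28309, and Hoxa2 and Hoxa3 with Gm28308, so their counts are uncertain too. The same holds for Hoxd3 and Hoxd4, which share exons with each other and with Gm28230, and for Hoxc5 with Hoxc10. Hoxa5, Hoxa10, Hoxa13, Hoxb7, Hoxb9, Hoxb13, Hoxd8, Hoxd12 and Hoxd13 have no exon overlap in the annotation used.

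Genes beside the clusters and genes known to act with or on Hox genes were taken from lists. Among all genes tested, 5.0% were called higher and 3.79% lower. Among 12 tested flanking genes 2 were called. Evx1, the homeobox gene next to Hoxa13, rose to 1.72 ± 0.462 CPM (SD, n = 6) from no count in small intestine (at least 55.2-fold; edgeR adjusted p = 0.00123), so it could only be called higher. Ttll6, beyond Hoxb13, rose 59.8-fold (edgeR adjusted p = 0.0183), with a ratio of 369 without small intestinal replicate 3. Of the 8 tested cofactors of Hox proteins, Meis3 rose from 6.94 ± 0.816 to 17.2 ± 2.81 CPM (edgeR adjusted p = 0.00713) and Meis2 fell from 2.05 ± 1.33 to 0.0393 ± 0.0447 CPM (0.0297). The other 6, Pbx genes among them, were not called.

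Of the caudal and ParaHox genes, relatives of the Hox genes that specify the intestine, 3 were tested. Cdx1 averaged 1279 ± 320 CPM (SD, n = 6) in colon and 823 ± 313 CPM (n = 3) in small intestine (edgeR adjusted p = 0.266). Cdx2 averaged 108 ± 75.2 and 109 ± 18.1 CPM (0.978). Pdx1, of the duodenum and pancreas, fell from 10.4 ± 1.81 to 0.818 ± 0.778 CPM (edgeR adjusted p = 0.0493). In the list of 10 tested gut region regulators, Gata4, Gata5, Onecut2 and Gata6 fell, beside 3.79% lower among all genes tested. Gata4 fell from 119 ± 20.3 to 0.441 ± 0.383 CPM (edgeR adjusted p = 0.000691).

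Chromatin regulators that keep Hox genes off or on were taken from lists as well, beside shares of 5.0% higher and 3.79% lower among all genes tested. Of 19 Polycomb genes tested, 0 were higher in colon and 1, Cbx2, was lower (4.63 ± 1.09 against 12.1 ± 3.82 CPM; edgeR adjusted p = 0.0282), with a median log2 fold change of -0.35 over the list. Among 8 trithorax and demethylase genes, and among 7 retinoid regulators, 0 were called, with medians of -0.42 and -0.49. Of 5 other Hox regulators tested, Nr6a1, a nuclear receptor of trunk development, was lower in colon (2.07 ± 0.484 against 5.77 ± 1.89 CPM; edgeR adjusted p = 0.0309). Whether these lists differ from those shares was not tested. The calls for Cbx2, Meis2, Nr6a1 and Pdx1 were lost in 9 to 12 of the alternatives tried.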

How the data were processed

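Poly(A) RNA of 9 libraries was sequenced. Per the submitters' processing notes, reads were handled with STAR, featureCounts of Subread and edgeR on build mm10; versions, annotation, strand setting and the treatment of overlapping genes are not stated there, in the labels or in the files. The authors deposited, per gene and library, the raw count, library size, gene length, a scaling factor given as a ratio, and log2 CPM, RPKM and TPM values, of which the raw counts were used. CPM and RPKM were computed from count, library size, scaling factor and length; coordinates and exons came from GENCODE M21. Among counts of 1 to 20, between 66.3% and 70.1% were even, so 1 fragment may add more than 1 count; floors and intervals cover counting error only.

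Genes were filtered by group (filterByExpr, 20610 of 78239 kept), TMM scaled and tested in edgeR 4.0.16 (R 4.3.3) with 1 quasi-likelihood fit of 3 groups, Benjamini-Hochberg adjusted, with a common biological coefficient of variation of 0.726. DESeq2 1.42.0, limma 3.58.1, other scalings, filters and blocks, and each library left out were tried, as were other presence thresholds. The script was tested on simulated data. Values in every library are given for boundary genes, paralogue 13 genes and the 3 most abundant members per cluster; named list genes are those called, up to 4 per list by absolute log2 fold change, with Gata6, Cdx1 and Cdx2 and a few further members added after their values were seen. The members and lists were chosen with earlier results of these data known. Some values, of a member and of a list gene, are not reported here.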

Additional observations from a re-analysis of the deposited data

How the results depend on the processing

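The 26 log2 fold changes of colon over small intestine stayed positive in each of the 20 alternatives, and 0 results reversed. Left-out libraries gave between 13 and 18 members called for all colon libraries, between 12 and 18 for GFP-high and between 12 and 16 for GFP-negative cells over small intestine, and 0 between the colon fractions. Of all genes, with 21932 to 22350 tested, 1 library left out gave between 627 and 1050 called higher for all colon libraries. For GFP-high cells it gave between 444 and 923, and for GFP-negative cells between 437 and 789. DESeq2 called 22, limma 18 and colon libraries summed by tag 19 members for all colon libraries. Treating the 6 colon libraries as 1 group, chosen after seeing the data, gave 20. Over all genes, 1030 were called higher in the main fit and 2248 with DESeq2. The number was 961 with limma, 1134 with tags summed and 1291 with 1 colon group. Fitting only the groups compared gave 17 members for GFP-high and 13 for GFP-negative cells over small intestine, beside 741 of 19010 and 689 of 18807 genes called higher. It is the same fit for all colon libraries, so it was not run there. Hoxb6, which missed the threshold, passed it in 7 alternatives.

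Some same-numbered libraries share a name tag: the colon libraries of replicate 1, those of replicate 2, and GFP-high replicate 3 with small intestinal replicate 3. Deviations from the group means correlated between -0.60 and 0.30 in same-numbered libraries. The -0.60 was that of the colon replicate 2 pair, whose labels Lgr5 went against. Whether the numbers pair the libraries cannot be settled by these correlations, because cell content may differ within a pair. With the replicate number as a block, 14, 13 and 12 members were called for all colon, GFP-high and GFP-negative cells over small intestine. The all-gene count for all colon fell from 1812 to 895, and was 508 for GFP-high and 532 for GFP-negative cells. With the library name tag as the block, 0, 0 and 0 members were called, beside 18, 18 and 0 of all genes, and 19, 20 and 17 members had an unadjusted p under 0.05; this fit leaves 2 residual degrees of freedom, because tags that occur once take out their library.

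Of the boundaries, Hoxd moved to paralogue 13 with 1 RPKM as the threshold and was paralogue 8 otherwise. Hoxa moved to 2 with 0.5 CPM, 9 with tissue means and 5 with 1 RPKM. Hoxb moved to 6 with 2 CPM or 1 RPKM, to 13 with tissue means and ranged from 9 to 13 with a library left out. Across all genes, alternatives called between 18 and 3618 for all colon libraries. Depth limits statements on Hoxc, Hoxd3, Hoxd4, Hoxd9 and Hoxb1 to levels near the floor. For Hoxd3, Hoxd4, Hoxc5 and Hoxc10, shared exons and the unstated treatment of overlapping genes limit them too.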

Other observations

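Since Lgr5 went against the labels of the colon replicate 2 pair, the paralogue 13 genes are also set beside Lgr5 in each colon library, in the order GFP-high replicates 1, 2 and 3 and GFP-negative replicates 1, 2 and 3. Lgr5 was at 43.5, 0.958, 73.0, 2.84, 62.1 and 6.28 CPM. Hoxa13 was at 11.9, 21.5, 13.5, 25.9, 14.3 and 27.3 CPM in these libraries, and the 3 libraries with the most Lgr5 were the 3 with the least Hoxa13. The noncoding gene Hottip, beside Hoxa13, was at 2.74, 8.40, 4.11, 7.94, 3.89 and 14 CPM, and the same 3 libraries were its lowest. Hoxb13, at 396, 317, 188, 547, 201 and 548 CPM, and Hoxd13, at 4.53, 3.63, 9.66, 5.18, 4.84 and 12.6 CPM, did not follow that order throughout. Hoxa11, of the same cluster as Hoxa13, went the other way. It was at 3.14, 1.97, 2.97, 1.54, 3.33 and 0.633 CPM, and the 3 libraries with the most Lgr5 were its highest. Of the members tested, none but Hoxa13 and Hoxa11 parted these libraries in either way. The share of all genes that do so was not computed, so these orders are a description only.

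The libraries are set in order by a measured value here, so no test was made. Leukocyte marker sums in the same libraries were 55.4, 589, 72.2, 631, 24.7 and 5954 CPM, and colonocyte marker sums were 472, 21327, 7681, 10266, 3182 and 25317 CPM. Enteroendocrine marker sums were 262, 11157, 386, 3242, 113 and 3250 CPM, and in each of these 3 sums the 3 libraries with the most Lgr5 were the lowest. Their part in the Hox values was not tested.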
